A study of Mus musculus with 8 samples.

Results

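Ankrd1, Ankrd2 and Ankrd23 encode the muscle ankyrin repeat proteins, and Csrp3 encodes a LIM-domain protein of the Z disc. These 4 genes, of 35275 in the table, were followed by their symbols in RNA of mouse myotubes, the multinucleated muscle cells that form in culture. They were chosen by their symbols from genes known to respond to stretch, with their FPKM differences between MPC EVs and control EVs at 12 h and 24 h in these libraries already known. Those differences between the treatments are therefore given as a description with no test, and only the effect of time, averaged over both treatments, was tested for them. The samples make 4 groups of 2 libraries, 8 in all: myotubes given MPC EVs and myotubes given control EVs, each collected at 12 h and at 24 h. MPC EVs are extracellular vesicles, small membrane particles shed by cells, from myogenic progenitor cells (MPCs). The control EVs were prepared from growth medium. In every group the myotubes had been differentiated in horse serum from primary progenitors of C57BL6/J mice. No untreated myotubes and no mechanical stretch are among the samples. A rise with MPC EVs and a fall with the control preparation cannot be told apart. Whether both libraries of a group were grown as separate cultures is not stated in the labels. A p-value here reflects library-to-library spread, part of which may be technical. In bulk RNA, fewer cells of a type and less RNA per cell cannot be told apart.

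In muscle, the muscle ankyrin repeat proteins bind the elastic part of the giant spring protein titin, at its N2A segment, and can also enter the nucleus. Ankrd1 (also called CARP) is abundant in the heart and is switched on in skeletal muscle by stretch and injury. Ankrd2 (Arpp) is typical of slow skeletal fibres, and Ankrd23 (DARP) was first described in diabetic muscle. Csrp3, or muscle LIM protein, carries a pair of LIM zinc-binding domains, sits at the Z disc beside the titin cap telethonin and also acts with myogenic transcription factors in the nucleus. Genes of this kind are used as reporters of mechanical load because their transcripts rise when muscle is stretched.

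The 250 bases before the RefSeq start of each gene, on GRCm38.p6, were searched for motifs that the 4 genes share. These starts differ from the ends of the GENCODE gene spans given further below. The Ankrd1 and Ankrd23 windows lie inside those spans, that of Ankrd2 reaches into its span, and only that of Csrp3 lies wholly before it. They are written 5′ to 3′ on the gene's strand, and capitals mark the core of the M-CAT element (GGAATG, or CATTCC on the other strand), which TEAD factors bind. The windows are chr19:36119845-36120094 on the minus strand for Ankrd1, chr19:42035777-42036026 on the plus strand for Ankrd2, chr1:36535740-36535989 on the minus strand for Ankrd23 and chr7:48848052-48848301 on the minus strand for Csrp3.
Ankrd1: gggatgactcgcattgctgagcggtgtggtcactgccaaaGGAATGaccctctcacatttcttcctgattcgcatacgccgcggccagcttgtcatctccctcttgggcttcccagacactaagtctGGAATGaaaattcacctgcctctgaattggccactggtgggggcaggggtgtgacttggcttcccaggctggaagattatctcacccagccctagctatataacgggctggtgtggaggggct
Ankrd2: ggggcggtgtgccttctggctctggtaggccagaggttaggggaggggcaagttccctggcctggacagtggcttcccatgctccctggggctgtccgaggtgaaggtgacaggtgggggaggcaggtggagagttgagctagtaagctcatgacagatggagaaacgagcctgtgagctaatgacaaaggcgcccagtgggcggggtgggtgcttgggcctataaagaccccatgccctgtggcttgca
Ankrd23: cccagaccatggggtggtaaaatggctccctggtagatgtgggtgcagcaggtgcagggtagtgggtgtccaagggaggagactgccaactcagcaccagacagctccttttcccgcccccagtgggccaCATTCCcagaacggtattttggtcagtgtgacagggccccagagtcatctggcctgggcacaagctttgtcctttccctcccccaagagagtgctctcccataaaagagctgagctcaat
Csrp3: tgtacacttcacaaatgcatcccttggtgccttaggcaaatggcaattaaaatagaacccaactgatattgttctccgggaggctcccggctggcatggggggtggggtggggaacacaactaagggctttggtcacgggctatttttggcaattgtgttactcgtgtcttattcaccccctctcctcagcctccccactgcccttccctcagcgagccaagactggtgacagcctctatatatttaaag

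The M-CAT core was found 2 times in the Ankrd1 window, 210 and 123 bases before the start, and 1 time in that of Ankrd23, 120 bases before the start. The windows of Ankrd2 and Csrp3 hold no match. Of 32851 promoters of the same length, 12.6% hold it on either strand. The E-box CANNTG, the core that myogenic factors bind, was found 1 time in Ankrd1, 3 times in Ankrd2, 2 times in Ankrd23 and 4 times in Csrp3, against a share of 66.2% of all promoters with at least 1. No match to the MEF2 motif (in 2.92% of all promoters) or to the CArG box of SRF (in 1.47%) was found in any of the 4 windows. The exact TATA box string TATAAA, searched on the given strand only, was found in Ankrd2, 29 bases before the start, and in 7.59% of all promoters. Variants of that string were not searched, such as the TATATAA near the end of the Ankrd1 window. No searched motif other than the E-box was found in all 4 windows. A match describes the letters only and does not show that a factor binds there.

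Levels are in FPKM, the sequenced fragments of a gene per kilobase of its length and per M of the library's fragments (M for mega). The library totals, recovered from the values, were 17.3 and 18.3 M fragments in the MPC EV libraries and 18.7 and 19.9 M in the control libraries at 12 h, and 16.3 and 18.0 M against 19.7 and 20.2 M at 24 h. Control 12 h replicate 2 stood apart: across genes its log2 values correlated with those of its partner at 0.947, against 0.992 to 0.996 in the other 3 groups. With the 6 libraries of the other groups it correlated at 0.930 to 0.957, and its partner, control 12 h replicate 1, at 0.964 to 0.983. The 12 h differences and list counts below are therefore also given without replicate 2. The summed level of 6 myotube markers was 5638 and 5714 FPKM in MPC EV libraries and 4837 and 5509 FPKM in control libraries at 12 h, and 3823 and 3897 FPKM against 3286 and 3287 FPKM at 24 h. Of these markers, 1 passed the test as higher with MPC EVs at 12 h and 2 at 24 h, and all 6 were lower at 24 h than at 12 h. Their part in the results on the 4 genes was not tested. The 5 progenitor markers summed to 157 to 160 FPKM with MPC EVs and 132 to 138 FPKM in controls at 12 h, and to 104 to 109 FPKM against 89.4 to 92.7 FPKM at 24 h. Of 6 cardiomyocyte markers, a list that matters because Ankrd1 and Csrp3 are abundant in heart, none reached the mean of 1 FPKM needed for testing. Their sum lay between 0.408 and 1.35 FPKM in MPC EV libraries and 3.68 and 4.97 FPKM in control libraries at 12 h. At 24 h it lay between 0.492 and 1.78 FPKM in MPC EV libraries and between 0.273 and 2.23 FPKM in controls. In at least 1 library Nppa, Nkx2-5, Myl7 and Ryr2 of that list were at 0. Endothelial markers summed to at most 0.312 FPKM in any library and macrophage markers to at most 2.18 FPKM.

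**Figure D1:**
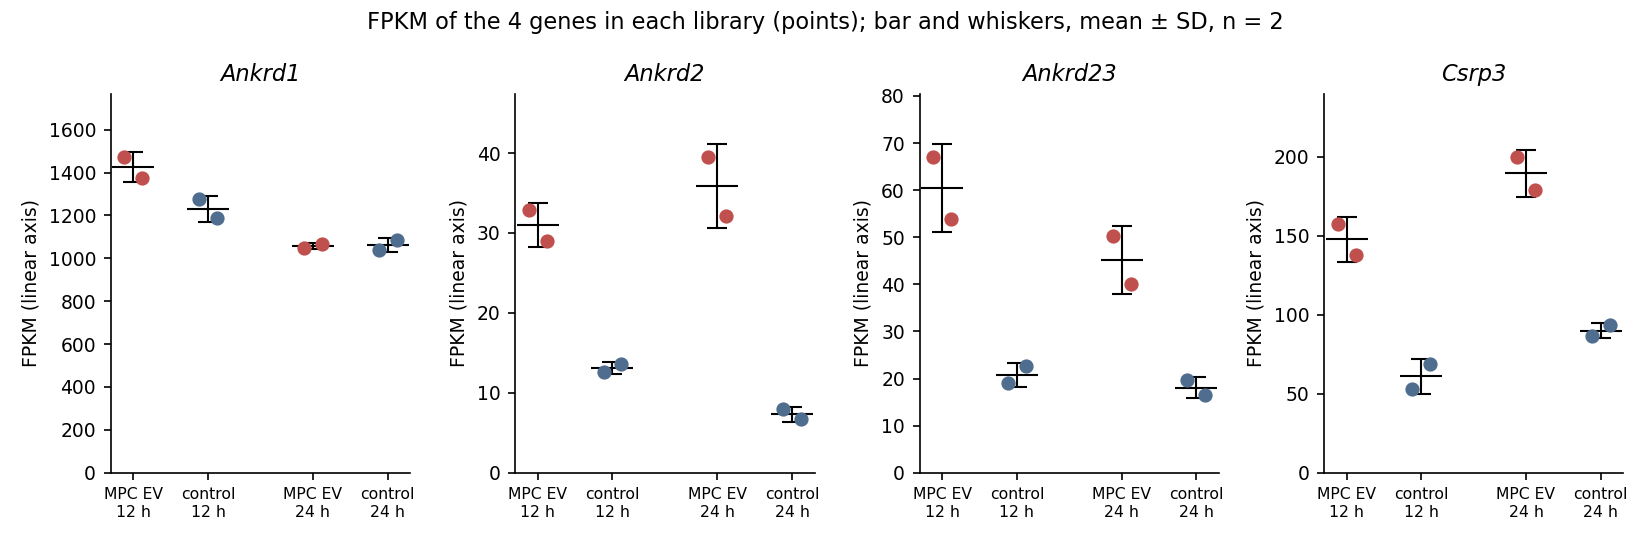
FPKM (linear axis, 1 scale per gene) of Ankrd1, Ankrd2, Ankrd23 and Csrp3 in each of the 8 libraries, MPC EV left of control at 12 h and at 24 h, with points for libraries and bars for the group mean ± SD (n = 2). Ankrd1 lies above 1000 FPKM in every library with its 24 h groups overlapping, and both MPC EV libraries lie above both control libraries for the other 3 genes at each time. The share of all tested genes with groups apart in this way was not counted.

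Ankrd1 was the most abundant of the 4 in every library, and the one with the smallest difference between treatments. Ankrd1 (ENSMUSG00000024803, chromosome 19, 36111961 to 36120099, minus strand) had 1474 and 1376 FPKM in MPC EV libraries and 1275 and 1189 FPKM in control libraries at 12 h. After 24 h, Ankrd1 had 1047 and 1067 FPKM with MPC EVs, against 1038 and 1087 FPKM in controls. The groups did not overlap at 12 h, and at 24 h the MPC EV libraries fell between the 2 control libraries. These levels put it between place 25 and place 56 among all genes of a library, with 30158 to 45057 fragments behind each value. The log2 difference, MPC EV minus control on the log2(FPKM + 0.5) scale used throughout, was 0.21 ± 0.07 (SE) at 12 h and -0.01 ± 0.07 at 24 h, or 1.16-fold and 0.995-fold on the means. Over all 10981 tested genes (mean of at least 1 FPKM) the median 12 h difference was -0.12, and 0.01 after median-ratio scaling of the libraries. Relative to those medians Ankrd1 stood at 0.33 on both scales. Without control 12 h replicate 2 its 12 h difference was 0.16.

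Ankrd2, the least abundant of the 4 in control myotubes, had the widest gap between treatments at 24 h. Ankrd2 (ENSMUSG00000025172, chromosome 19, 42036000 to 42045110, plus strand) had 32.9 and 29.0 FPKM with MPC EVs, against 12.6 and 13.6 FPKM in controls at 12 h. Its 24 h levels were 39.5 and 32.1 FPKM with MPC EVs and 7.98 and 6.66 FPKM in controls. Both MPC EV libraries were above both control libraries at each time, and the 24 h controls were the lowest of all 8. The group means were 31.0 ± 2.73 FPKM with MPC EVs and 13.1 ± 0.730 FPKM in controls at 12 h (SD, n = 2 each), and 35.8 ± 5.23 FPKM against 7.32 ± 0.930 FPKM at 24 h. The log2 difference was 1.21 ± 0.13 (SE) at 12 h, 2.37-fold, and 2.21 ± 0.13 at 24 h, 4.89-fold. The 24 h difference exceeded that at 12 h by 1.00 ± 0.19. Within MPC EV myotubes the mean log2 level was 0.20 higher at 24 h than at 12 h with overlapping libraries, and within controls it was 0.80 lower without overlap. Between 586 and 710 fragments stood behind each MPC EV value and between 148 and 297 behind each control value, a counting error of at most 8.22%. Without control 12 h replicate 2 the 12 h difference was 1.27.

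Ankrd23 had a similar difference at both times. Ankrd23 (ENSMUSG00000067653, chromosome 1, 36530188 to 36536883, minus strand) had 67.1 and 53.9 FPKM with MPC EVs, against 19.0 and 22.6 FPKM in controls at 12 h. By 24 h it stood at 50.2 and 40.0 FPKM with MPC EVs and 19.6 and 16.4 FPKM in controls. The lowest MPC EV library, at 24 h, was still above the highest control library, at 12 h. Mean levels were 60.5 ± 9.33 FPKM with MPC EVs and 20.8 ± 2.51 FPKM in controls at 12 h (SD, n = 2 each), and 45.1 ± 7.21 FPKM against 18.0 ± 2.25 FPKM at 24 h. The log2 difference was 1.51 ± 0.17 (SE) at 12 h, 2.91-fold, and 1.30 ± 0.17 at 24 h, 2.50-fold. The change of that difference, -0.22 ± 0.24, was smaller than its error. Each value rests on 648 to 2271 fragments, and without control 12 h replicate 2 the 12 h difference was 1.63.

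Csrp3, the LIM-domain member, was the second most abundant and was higher at 24 h than at 12 h in both treatments. Csrp3 (ENSMUSG00000030470, chromosome 7, 48830398 to 48848033, minus strand) had 157.6 and 137.7 FPKM with MPC EVs, against 53.2 and 69.0 FPKM in controls at 12 h. At 24 h it had 200.04 and 178.9 FPKM with MPC EVs and 86.6 and 93.2 FPKM in controls. All 4 MPC EV libraries were above all 4 control libraries. The means were 147.7 ± 14.1 FPKM with MPC EVs and 61.1 ± 11.1 FPKM in controls at 12 h (SD, n = 2 each), and 189.5 ± 14.9 FPKM against 89.9 ± 4.72 FPKM at 24 h. The log2 difference was 1.28 ± 0.14 (SE) at 12 h, 2.42-fold, and 1.07 ± 0.14 at 24 h, 2.11-fold, and the change between the times, -0.21 ± 0.19, was close to its error. The 12 h controls differed more from each other for Csrp3 than for the other 3 genes: the difference was 1.46 without control 12 h replicate 2 and 1.09 without control 12 h replicate 1.

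**Figure D2:**
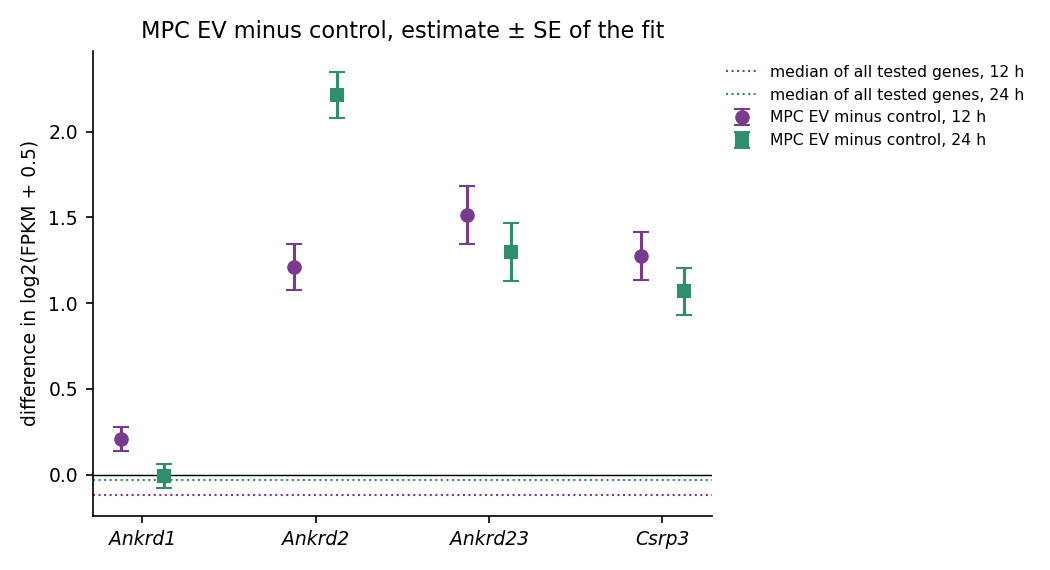
Difference MPC EV minus control on the log2(FPKM + 0.5) scale at 12 h and at 24 h for the 4 genes, with bars of 1 SE and the median of all tested genes for comparison. Ankrd1 is near the median of all genes at 24 h, while Ankrd2 (1.21 and 2.21), Ankrd23 (1.51 and 1.30) and Csrp3 (1.28 and 1.07) exceed 1 at both times.

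Ankrd2, Ankrd23 and Csrp3 thus had log2 differences above 1 at both times and Ankrd1 at neither. Of all tested genes 0.337% were above 1 at both times (4.27% at 12 h and 0.801% at 24 h). The 4 genes were chosen with these differences known, so nothing is read from that contrast. Nor is anything read from groups that did not overlap, as the share of all tested genes with such groups was not counted. By level per length, the order was Ankrd1, Csrp3, Ankrd23, Ankrd2 in every library, with no overlap between neighbours within any group. The closest neighbours were Ankrd23 (40.0 FPKM) and Ankrd2 (39.5 FPKM) in different MPC EV libraries at 24 h. That order depends on the gene lengths the values were divided by, which came out as 1765 bases for Ankrd1, 1100 for Ankrd2, 1954 for Ankrd23 and 919 for Csrp3. With the union of all exons in GENCODE vM21 (2886, 1138, 2697 and 2671 bases), Ankrd2 stood above Ankrd23 in the MPC EV libraries at 24 h, with levels of 38.2 and 31.1 against 36.4 and 29.0. On those lengths Csrp3 (54.2 and 47.4) and Ankrd23 (48.6 and 39.1) overlapped in MPC EV libraries at 12 h. Gene length is the same in both treatments and does not set the differences of a gene between them. Shares of summed FPKM, given below, do depend on these lengths and were not computed with the union lengths. In MPC EV 24 h replicate 1 the union lengths give 640.1 for Ankrd1, 38.2 for Ankrd2 and 36.4 for Ankrd23. The FPKM values there are 1047, 39.5 and 50.2.

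Because Ankrd1 moved little, the makeup of the ankyrin repeat trio shifted between treatments while Ankrd1 dominated it throughout. Ankrd1 made up 93.6% and 94.3% of the summed FPKM of the 3 genes with MPC EVs, against 97.6% and 97.0% in controls at 12 h. At 24 h its share was 92.1% and 93.7% with MPC EVs and 97.4% and 97.9% in controls. Ankrd2 took 1.99% to 2.09% with MPC EVs and 0.962% to 1.11% in controls at 12 h, and 2.82% to 3.48% against 0.601% to 0.749% at 24 h. Ankrd23 took 3.70% to 4.26% with MPC EVs and 1.46% to 1.84% in controls at 12 h, and 3.51% to 4.42% against 1.48% to 1.84% at 24 h. These shares did not overlap between treatments at either time. They restate the differences with which the genes were chosen, so nothing is read from that.

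Both relatives of Csrp3 fell at 12 h. Csrp1, the cysteine-rich protein typical of smooth muscle, had 30.8 and 33.8 FPKM with MPC EVs, against 50.1 and 59.4 FPKM in controls at 12 h, and 37.3 and 37.6 FPKM against 55.1 and 54.8 FPKM at 24 h. It fell by 0.75 on the log2 scale at 12 h (adjusted p = 0.00733) and by 0.55 at 24 h (adjusted p = 0.0346), by limma with Benjamini-Hochberg adjustment over all tested genes, as are all adjusted p-values here. Csrp2, a relative found in smooth muscle and many other cells, had 4.09 and 4.93 FPKM with MPC EVs and 9.16 and 9.89 FPKM in controls at 12 h. It fell by 1.00 at 12 h (adjusted p = 0.0120), while its 24 h difference of -0.77 did not pass (adjusted p = 0.0515). Both groups of both genes were apart at each time, but the share of all tested genes with groups apart was not counted. The Csrp1 call was lost at 12 h without MPC EV 12 h replicate 1 (adjusted p = 0.0578), and at 24 h without any 1 MPC EV library of either time or any 1 control 24 h library (adjusted p of up to 0.249). The Csrp2 call at 12 h was lost without MPC EV 12 h replicate 1 (adjusted p = 0.0739) or replicate 2 (adjusted p = 0.0521), and at 24 h it passed after median-ratio scaling (adjusted p = 0.0437) and without control 12 h replicate 1 (adjusted p = 0.0153) or replicate 2 (adjusted p = 0.0174). Of 6 pericyte and smooth muscle markers, Acta2 and Tagln made up nearly all of the sum, 1706 and 1782 FPKM with MPC EVs and 1675 and 2002 FPKM in controls at 12 h, and 764 to 869 FPKM against 882 to 946 FPKM at 24 h. Of these 6 markers 2 were tested. With MPC EVs 1 passed as lower at 12 h and none at 24 h, and both were lower at 24 h than at 12 h. Myh11 and Cnn1, which define smooth muscle, stayed at or below 0.176 and 0.170 FPKM. The 5 fibroblast markers summed to 5.75 to 7.61 FPKM with MPC EVs and 9.32 to 10.9 FPKM in controls at 12 h, and to 7.28 to 8.25 FPKM against 12.1 to 12.4 FPKM at 24 h. This sum was lower with MPC EVs at both times, as Csrp1 and Csrp2 were. Col1a1 was the most abundant of the 5 in every library. Only 2 of the 5 were tested, of which 1 passed as lower at 12 h and none at 24 h. The part of fibroblasts, or of cells with the pericyte and smooth muscle markers, in the lower Csrp1 and Csrp2 levels was not tested. On the lengths the values were divided by, Csrp3 made up 81.9% and 78.0% of the summed FPKM of Csrp1, Csrp2 and Csrp3 with MPC EVs at 12 h. Its share in controls was 47.3% and 49.9%. At 24 h it made up 82.9% and 80.9% with MPC EVs, against 57.7% and 60.1% in controls.

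**Figure D3:**
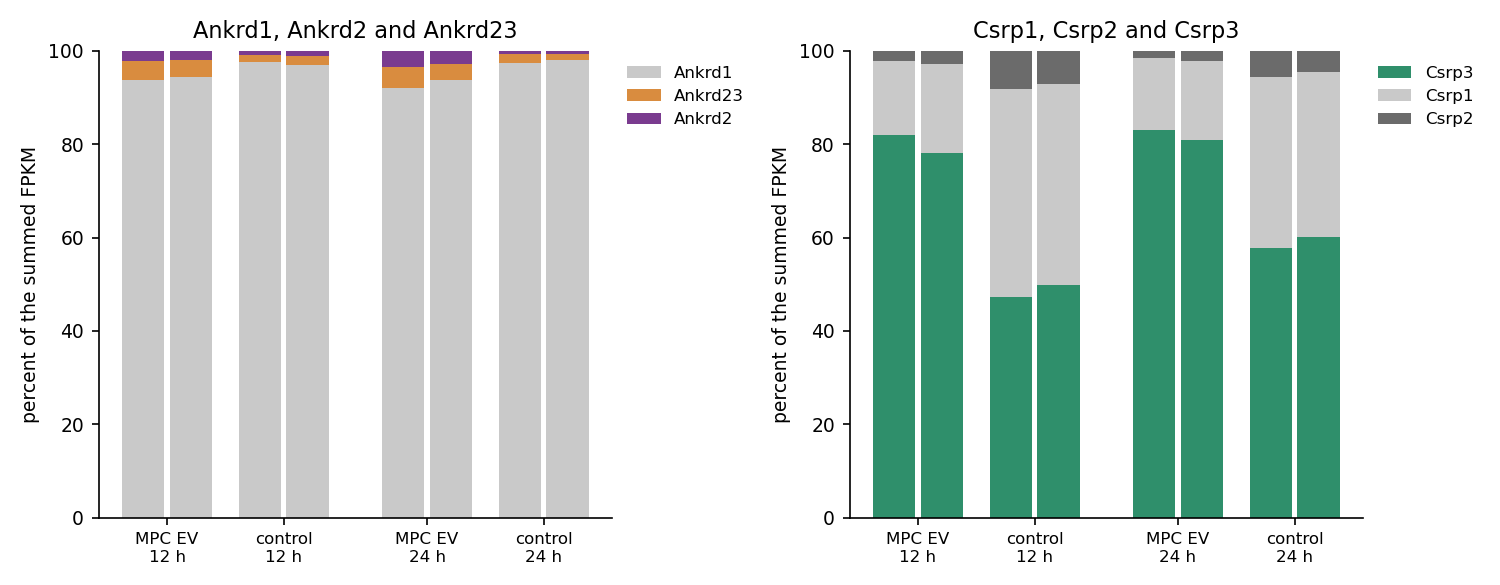
Share (percent) of the summed FPKM taken by each gene of the ankyrin repeat trio (Ankrd1, Ankrd2, Ankrd23) and of the cysteine-rich protein family (Csrp1, Csrp2, Csrp3) in each library, MPC EV left of control at each time. On the gene lengths the values were divided by, Ankrd1 keeps over 92% of its trio in every library. On those lengths Csrp3 takes 78.0% to 82.9% of its family with MPC EVs and 47.3% to 60.1% in controls. Shares with other lengths were not computed.

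The effect of time, taken over both treatments in a contrast that does not use the EV differences, passed the test for 2 of the 4 genes, in opposite directions. Of all tested genes 28.0% passed (16.6% higher and 11.4% lower at 24 h, or 1827 against 1249 genes, which became 1482 against 1581 after median-ratio scaling). Ankrd1 fell by 0.32 ± 0.05 (SE) between 12 h and 24 h (adjusted p = 0.00538), and all 4 libraries of 24 h were below all 4 of 12 h. The fall was 0.43 in MPC EV myotubes and 0.21 in controls, and the call held without any 1 library (adjusted p of 0.00132 to 0.0364). Csrp3 rose by 0.46 ± 0.10 (adjusted p = 0.0161), by 0.36 in MPC EV myotubes and 0.56 in controls, with no overlap between times within either treatment. This call was lost without MPC EV 12 h replicate 2 (adjusted p = 0.0613), MPC EV 24 h replicate 1 (0.0649), control 24 h replicate 1 (0.0511) or control 24 h replicate 2 (0.0679). Ankrd2 had a time difference of -0.30 ± 0.10 that did not pass (adjusted p = 0.0614). This averages opposite changes, 0.20 in MPC EV myotubes and -0.80 in controls. The averaged time difference of Ankrd2 passed after median-ratio scaling (-0.35, adjusted p = 0.0423). Without control 12 h replicate 1 it was -0.33, given by size only because 1 control library is then left at 12 h. Ankrd23 had a time difference of -0.31 ± 0.12 (adjusted p = 0.102), -0.42 in MPC EV myotubes and -0.20 in controls. Without control 12 h replicate 1 the time difference of Ankrd23 was -0.37, also given by size only. Of the 4 genes, Csrp3 thus ran against the 6 myotube markers, all of which fell with time. The share of all tested genes with no overlap between the times was not counted, so nothing is read from the lack of overlap.

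The partners that these proteins bind at titin and the Z disc were taken next, as 1 of 6 lists of related genes. All 6 lists were chosen with earlier results of these data known. Their counts, medians and p-values are therefore a description and no independent support. At 12 h, 18.6% of all tested genes passed (4.36% higher and 14.3% lower, or 479 against 1566 genes, which became 736 against 548 after median-ratio scaling), and at 24 h 3.57% did (2.61% higher and 0.956% lower). Of 13 tested partners, 8 were higher with MPC EVs at 12 h, none was lower and 5 did not pass, with a median log2 difference of 0.74 against -0.12 over all genes. At 24 h 4 were higher, none was lower and 9 did not pass, with a median of 0.30 against -0.03. The number that passed at 12 h ranged from 2, without any 1 MPC EV library, to 13, without control 12 h replicate 1 (11 higher and 2 lower; 9 without control 12 h replicate 2). The 24 h number ranged from 2, without either MPC EV 24 h library or control 24 h replicate 1, to 6, without either control 12 h library.

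Tcap, the titin cap that binds Csrp3 at the Z disc, averaged 25.3 ± 2.45 FPKM with MPC EVs and 7.76 ± 0.00875 FPKM in controls at 12 h (SD, n = 2 each). It rose by 1.64 ± 0.11 (SE) at 12 h (adjusted p = 0.00245) and by 1.60 ± 0.11 at 24 h (adjusted p = 0.00275). Actn2, the alpha-actinin that crosslinks thin filaments at the Z disc, rose by 1.64 ± 0.12 at 12 h (adjusted p = 0.00245) and by 2.71 ± 0.12 at 24 h (adjusted p = 0.00196). Both genes kept these calls without any 1 library. They did not pass at 12 h in a fit to the 12 h libraries only (adjusted p = 0.0581 for Tcap and 0.0618 for Actn2), nor at 24 h with the replicate number as a block (adjusted p = 0.0573 for each). Capn3, the calpain that docks on titin beside the ankyrin repeat proteins, averaged 17.4 ± 1.79 FPKM with MPC EVs and 8.34 ± 0.467 FPKM in controls at 12 h, and 6.61 ± 0.856 FPKM against 1.82 ± 0.628 FPKM at 24 h. Capn3 rose by 1.01 at 12 h (adjusted p = 0.0234) and by 1.64 at 24 h (adjusted p = 0.0121). Its 12 h call was lost without any 1 MPC EV library (adjusted p of up to 0.114), and its 24 h call without either MPC EV 24 h library or control 24 h replicate 1 (adjusted p of up to 0.126).

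Ttn, titin itself, averaged 28.1 ± 3.03 FPKM with MPC EVs and 7.74 ± 5.76 FPKM in controls at 12 h. Its 12 h rise of 1.99 ± 0.47 (adjusted p = 0.0359) was 1.21 without control 12 h replicate 2, and the call was lost without any 1 MPC EV or control 24 h library (adjusted p of up to 0.152). At 24 h Ttn had a difference of 0.30 (adjusted p = 0.920). Mypn, the myopalladin that binds Ankrd1 and Ankrd23 in the I band, rose by 0.45 at 12 h (adjusted p = 0.0352), a call also lost without any 1 MPC EV or control 24 h library (adjusted p of up to 0.157). Its 24 h difference was 0.41 (adjusted p = 0.117), and this passed without either control 12 h library (adjusted p = 0.0122 and 0.0139). Ybx1, the nuclear Y-box protein that binds Ankrd1, had differences of -0.19 at 12 h (adjusted p = 0.145) and -0.01 at 24 h (adjusted p = 0.983). Without control 12 h replicate 1 the 12 h difference of Ybx1 passed, at -0.28 (adjusted p = 0.0136).

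Among 18 tested LIM-domain relatives, 6 were higher and 2 lower with MPC EVs at 12 h and 10 did not pass. At 24 h 4 were higher, 2 were lower and 12 did not pass. Their medians were 0.22 against -0.12 over all genes at 12 h and 0.14 against -0.03 at 24 h. Lmcd1, a LIM protein that restrains GATA factors, had 21.3 and 18.5 FPKM with MPC EVs, against 2.04 and 2.07 FPKM in controls at 12 h. It rose by 2.99 ± 0.20 at 12 h (adjusted p = 0.00245) and by 2.81 ± 0.20 at 24 h (adjusted p = 0.00275), and kept both calls without any 1 library. With the replicate number as a block Lmcd1 did not pass at 24 h (adjusted p = 0.0573). Ldb3, the PDZ and LIM protein of the Z disc also called cypher, rose by 0.85 at 12 h (adjusted p = 0.00620) and by 1.02 at 24 h (adjusted p = 0.00599). Its calls were lost without MPC EV 12 h replicate 2 at 12 h (adjusted p = 0.0515), and without either MPC EV 24 h library or control 24 h replicate 1 at 24 h (adjusted p of up to 0.0838). Fhl1, a muscle protein made of LIM domains alone, rose by 0.95 at 24 h (adjusted p = 0.00311, and 0.0510 without control 24 h replicate 1). Fhl3 rose by 1.02 at 24 h (adjusted p = 0.0178), a call lost without MPC EV 24 h replicate 1 or either control 24 h library (adjusted p of up to 0.158). The number that passed ranged from 2, without MPC EV 12 h replicate 1, to 15, without control 12 h replicate 1 (9 higher and 6 lower; 8 without control 12 h replicate 2), at 12 h, and from 1, without control 24 h replicate 1, to 11, without either control 12 h library, at 24 h.

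Of 9 other ankyrin repeat genes of muscle, 2 were lower with MPC EVs at 12 h and 1 at 24 h, and none was higher at either time. Of all tested genes 14.3% were lower and 4.36% higher at 12 h, and 0.956% lower and 2.61% higher at 24 h, so nothing is read from counts this small. The medians, 0.23 at 12 h and 0.13 at 24 h, were above 0 although the genes that passed were lower. After median-ratio scaling 2 were higher and 1 was lower at 12 h. Asb5, the substrate-binding part of a ubiquitin ligase, had differences of -0.30 at 12 h (adjusted p = 0.0373) and -0.38 at 24 h (adjusted p = 0.0468), of which neither passed after median-ratio scaling (adjusted p = 0.200 and 0.0634). Asb8, of the same family, fell by 0.40 at 12 h (adjusted p = 0.0151), lost without either MPC EV 12 h library (adjusted p of up to 0.0841). Without 1 library the number that passed ranged from 0 (either MPC EV 12 h library left out) to 4 (control 12 h replicate 1, 2 of them higher) at 12 h, with 3 without control 12 h replicate 2 (1 of them higher), and from 0 (any 1 library of 24 h or either MPC EV 12 h library) to 2 (either control 12 h library, 1 of them higher) at 24 h.

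**Figure D4:**
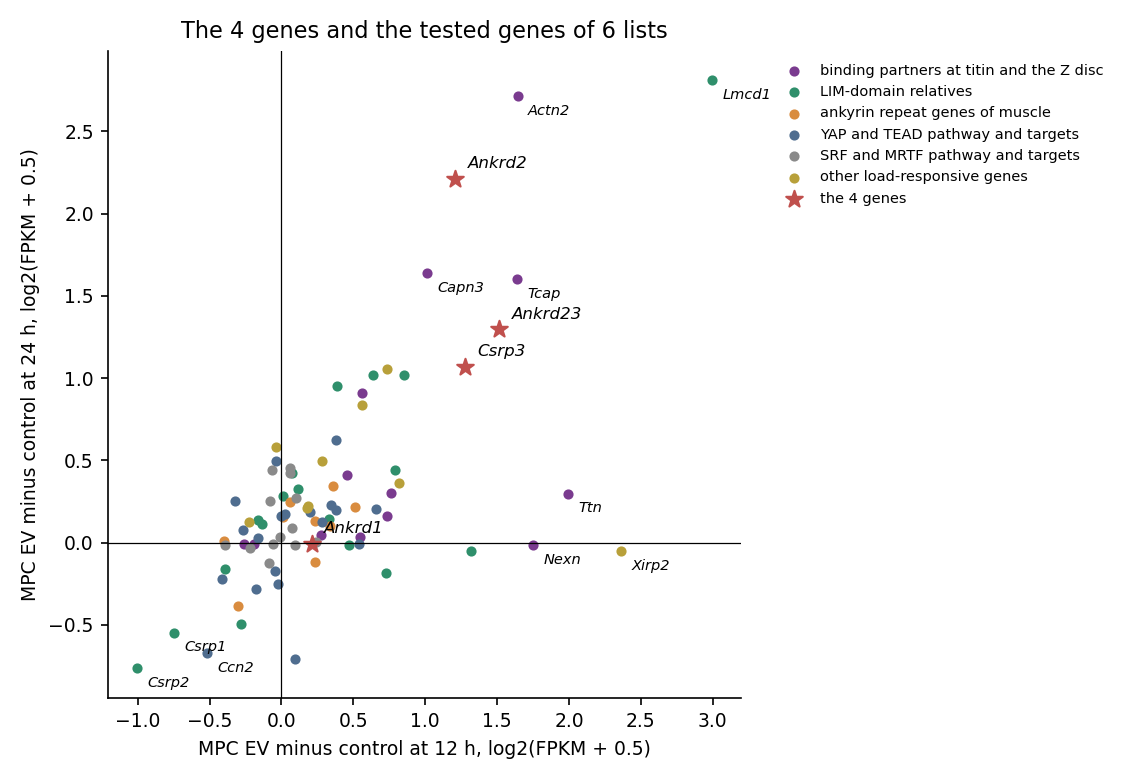
Difference MPC EV minus control on the log2(FPKM + 0.5) scale at 12 h (x axis) and at 24 h (y axis) for the 4 genes and the tested genes of the 6 lists, 1 point per gene. Ankrd2, Ankrd23 and Csrp3 lie in the upper right with Tcap, Capn3, Actn2 and Lmcd1, and Ankrd1 lies near the origin.

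Ankrd1 is a known target of YAP and TEAD, which bind the M-CAT element, and of mechanical signals through SRF. Of 19 tested genes of the YAP and TEAD list, 2 were higher and 3 lower with MPC EVs at 12 h and 14 did not pass (5 higher and 1 lower after median-ratio scaling). At 24 h none was higher, 1 was lower and 18 did not pass, and the medians were -0.00 at 12 h and 0.13 at 24 h. Ccn1 (Cyr61), a secreted matrix protein and YAP target, had 69.7 and 80.0 FPKM with MPC EVs, against 72.1 and 77.7 FPKM in controls at 12 h, a log2 difference of -0.00 (adjusted p = 0.980). At 24 h the difference of Ccn1 was 0.16 (adjusted p = 0.474). Ccn2 (Ctgf), the other classical target of this kind, had 9.30 and 10.7 FPKM with MPC EVs and 13.3 and 15.8 FPKM in controls at 12 h, and 9.59 and 10.1 FPKM against 16.4 and 15.6 FPKM at 24 h. It fell by 0.52 at 12 h (adjusted p = 0.0281; 0.0530 after median-ratio scaling) and by 0.67 at 24 h (adjusted p = 0.0321). The Ccn2 calls were lost at 12 h without any 1 MPC EV or control 24 h library (adjusted p of up to 0.126), and at 24 h without any 1 MPC EV or control 24 h library (adjusted p of up to 0.247). The number of the list that passed ranged from 0 to 12 at 12 h, the highest without control 12 h replicate 1 (7 higher and 5 lower; 4 without control 12 h replicate 2) and 0 without either MPC EV 12 h or either control 24 h library, and from 0 to 5 at 24 h, the highest without either control 12 h library.

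In the SRF and MRTF list, 1 of 13 tested genes was lower with MPC EVs at 12 h, none was higher and 12 did not pass, and none passed at 24 h. The 1 gene was Actb, cytoplasmic beta-actin, at -0.39 (adjusted p = 0.0301), or -0.26 after median-ratio scaling (adjusted p = 0.0831). After that scaling 1 gene was higher and none lower at 12 h. Without any 1 MPC EV or control 24 h library the list had 0 calls at 12 h, and without control 12 h replicate 1 it had 3 (2 without control 12 h replicate 2), and at 24 h it had 0 without any 1 of those 6 libraries and 5, all higher, without either control 12 h library. Srf, the factor itself, had differences of -0.01 at 12 h (adjusted p = 0.944) and 0.03 at 24 h (adjusted p = 0.950), a value chosen after it was seen.

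Among 9 tested genes of the remaining load-responsive list, 4 were higher at 12 h, 4 at 24 h and none was lower at either time. The medians were 0.28 at 12 h and 0.36 at 24 h. Hspb7, a small heat shock protein of striated muscle, averaged 26.7 ± 2.01 FPKM with MPC EVs and 15.8 ± 0.345 FPKM in controls at 12 h, and 36.1 ± 4.29 FPKM against 17.1 ± 0.0462 FPKM at 24 h (SD, n = 2 each). It rose by 0.73 at 12 h (adjusted p = 0.00854, and 0.0648 without MPC EV 12 h replicate 1) and by 1.05 at 24 h (adjusted p = 0.00515, and 0.0640 and 0.0742 without control 24 h replicates 1 and 2). Smpx, a small muscle protein known to respond to stretch, rose by 0.56 at 12 h (adjusted p = 0.0191) and by 0.84 at 24 h (adjusted p = 0.0118). These calls were lost without either MPC EV 12 h library at 12 h (adjusted p of up to 0.0978) and without any 1 library of 24 h at 24 h (adjusted p of up to 0.128). Xirp1, an actin-binding protein of sites of muscle injury, rose by 0.82 at 12 h (adjusted p = 0.00716, and 0.0545 without MPC EV 12 h replicate 2), and its 24 h difference of 0.36 did not pass (adjusted p = 0.138). The number that passed at 12 h ranged from 1, without either MPC EV 12 h library, to 6, without control 12 h replicate 1 (4 without control 12 h replicate 2). At 24 h it ranged from 0, without either control 24 h library, to 5, without either control 12 h library.

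Without control 12 h replicate 2, every 12 h call named above for a list gene still passed. Among called list genes not named above, Amot (0.65, then 0.60) and Hspb1 (0.28, then 0.27) lost their 12 h calls. The 12 h differences were then 1.64 for Tcap, 1.79 for Actn2, 1.07 for Capn3, 1.21 for Ttn and 0.59 for Mypn among the partners. Among the LIM-domain relatives they were 3.003 for Lmcd1, 0.96 for Ldb3, -0.63 for Csrp1 and -0.95 for Csrp2. The remaining genes with a 12 h call named above stood at -0.38 for Asb5, -0.37 for Asb8, -0.40 for Ccn2, -0.34 for Actb, 0.75 for Hspb7, 0.69 for Smpx and 0.95 for Xirp1. The largest adjusted p among these was 0.0463, for Actb. Ybx1 stood at -0.09 and Ccn1 at 0.05. Other settings kept fewer of these calls. In a fit to the 12 h libraries only, Lmcd1 alone of the genes with a 12 h call named above still passed (adjusted p = 0.0499). With the replicate number as a block, 12 h calls were lost for Capn3, Ttn, Mypn, Csrp2, Asb5, Asb8, Ccn2, Actb, Hspb7 and Smpx. Tcap, Actn2, Lmcd1, Ldb3, Csrp1 and Xirp1 kept theirs with the block.

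The partner list held genes of both directions with time. Of the 13 partners 3 rose and 6 fell between 12 h and 24 h over both treatments, and 4 did not pass. Capn3 fell by 1.64 (adjusted p = 0.000563), Actn2 by 1.30 (adjusted p = 0.000232), Palld, an actin crosslinker, by 1.05 (adjusted p = 0.000572) and Tcap by 0.79 (adjusted p = 0.00101). Of the LIM-domain relatives 4 rose and 5 fell, of the ankyrin repeat genes 2 rose and 2 fell, of the YAP and TEAD list 3 rose and 6 fell, of the SRF and MRTF list 2 rose and 4 fell (none and 4 after median-ratio scaling), and of the load-responsive list 1 rose and 2 fell. Over all tested genes 16.6% rose and 11.4% fell, and the counts of these lists are not read as different from that. Ablim1, an actin-binding LIM protein, had the smallest adjusted p of the LIM-domain relatives, with a fall of 1.78 (adjusted p = 6.23e-05).

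The difference between the EV effects at 24 h and at 12 h passed for no tested gene of any list, and for none of all tested genes (0%) by limma, although 2014 had an unadjusted p below 0.05. limma-voom on the recovered fragments also called 0. In simulated data with independent noise, limma recovered 47.8% of log2 changes of 1 in this contrast and 9.0% of changes of 0.5. That no gene passed therefore does not show that the EV effects were alike at both times. Without control 12 h replicate 2 the difference passed for 3 of all tested genes, without MPC EV 24 h replicate 2 for 1, and without control 12 h replicate 1, when the library that stands apart was the only control at 12 h, for 3668. Of the 4 genes Ankrd2 had the only change of the EV difference above 0.5 in size, at 1.00 against a median of 0.11 over all genes.

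The profiles of the 4 genes were set side by side over the 8 libraries. Likeness was measured as the root mean square difference of the centred log2 profiles, 0 meaning the same shape and size of change. Ankrd2 and Ankrd23 were the most alike pair, at 0.345, followed by Ankrd23 and Csrp3 at 0.418 and Ankrd2 and Csrp3 at 0.567. Ankrd1 was farther from each of the others, at 0.670 from Ankrd23, 0.676 from Csrp3 and 0.870 from Ankrd2. Around their own means the profiles spread by 0.181 for Ankrd1, 0.911 for Ankrd2, 0.736 for Ankrd23 and 0.643 for Csrp3.

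For each of the 4 genes, the nearest gene among all those compared lay closer than any other member did. The nearest of so many genes is likely to lie closer, so nothing is read from that. The nearest to Ankrd2 were Mcpt8, a mast cell protease gene (0.199), the keratin gene Krt18 (0.235) and Dhrs7c, a dehydrogenase of the sarcoplasmic reticulum (0.246). Mcpt8 had 24.8 and 24.4 FPKM with MPC EVs, against 8.18 and 7.90 FPKM in controls at 12 h, and 31.2 and 23.0 FPKM against 4.09 and 4.69 FPKM at 24 h. Like Ankrd2, it was lower in the 24 h controls than in the 12 h controls. The nearest to Ankrd23 were Dusp6, a phosphatase that switches off ERK kinases (0.207), Tmem200a (0.207) and Apln, the secreted peptide apelin (0.209). Dusp6 had 16.0 and 16.6 FPKM with MPC EVs, against 5.40 and 6.45 FPKM in controls at 12 h, and 16.8 and 15.6 FPKM against 5.92 and 5.99 FPKM at 24 h.

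The nearest to Csrp3 were Oxct1, an enzyme that lets muscle burn ketone bodies (0.206), Slc8a1, a sodium and calcium exchanger (0.213), and Nr4a1, an orphan nuclear receptor (0.216). Oxct1 averaged 17.7 ± 0.613 FPKM with MPC EVs and 9.79 ± 0.0268 FPKM in controls at 12 h, and 25.6 FPKM against 13.9 FPKM at 24 h. Like Csrp3, it was higher at 24 h in both treatments. The nearest to Ankrd1 were Tmem53 (0.0508), Id4, an inhibitor of helix-loop-helix factors (0.0640), and Jmjd4 (0.0642), all at under 8 FPKM, while Ankrd1 lay above 1000 FPKM. With each library left out in turn, at least 2 of the 3 genes named for a member remained among its nearest 10. The likeness of these profiles is a description over 8 libraries in 4 groups and carries no test.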

How the data were processed

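RNA of mouse primary myotubes was sequenced in paired ends from libraries without strand information, per the labels' protocols. The authors deposited FPKM values, 1 column per library and 35275 genes. HISAT2, DESeq2 (version 2) and the mm10 build are named in the submitters' processing notes with no role stated. How fragments were counted, with which annotation release and after which filters, is not given in the sources used here. Because each FPKM value is relative to its library's total, a shift in a few abundant transcripts moves all the others.

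Symbols and coordinates came from GENCODE vM21 (GRCm38) for 34490 IDs, with 785 unmatched, and no other gene in the table overlaps the 4 genes. All values of the 10981 tested genes were whole fragments within a tolerance of 0.0001, widened in proportion to the count for high counts. The depths came out as 16.3 to 20.2 M (mega). Counting errors cover sampling of fragments only. Genes averaging 1 FPKM or more were tested on log2(FPKM + 0.5), a scale that understates the change of low genes, with limma 3.58.1 in R 4.3.3 (intensity trend, 4 groups, 4 residual degrees of freedom, two-sided, Benjamini-Hochberg threshold 0.05). The members and the 6 lists were chosen with earlier results of these data known. Genes named beyond the 4 are the direct partners and relatives, the 3 most alike profiles of each, and up to 4 genes per list and comparison with the smallest adjusted p among those that passed. Only some of these are given. Alternatives were pseudocounts of 0.1 and 1, no filter or a mean of at least 5 FPKM, median-ratio scaling, the replicate number as a block, no variance trend, libraries of 1 time only and each library left out, with limma-voom on the recovered fragments and union exon lengths added after seeing the data. Promoter windows came from RefSeq on GRCm38.p6. For genes with more than 1 start, the most upstream one near the 5′ end of a principal transcript was used. The fit was tested on simulated data. Tables were prepared in Python 3.11.15 (pandas 2.3.3, numpy 2.4.6) and figures in matplotlib 3.10.9.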

Additional observations from a re-analysis of the deposited data

How the results depend on the processing

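Each group has 2 libraries, and the calls depend on which are fitted. Where 1 library of a group is left out, the lone sample is assumed to vary like the other groups. Of 10981 tested genes, 2045 passed at 12 h, 1284 after median-ratio scaling, 323 with the replicate block and 11 in a fit to the 12 h libraries only. Without 1 library the 12 h count ranged from 212 (without MPC EV 12 h replicate 1) to 5671 (without control 12 h replicate 1). At 24 h 392 passed, 225 with no filter on low values, 0 with the replicate block (so every 24 h call named for a gene was lost there) and 763 in a fit to the 24 h libraries only, and without 1 library 27 (without control 24 h replicate 1) to 958 (without control 12 h replicate 1). The time effect passed for 3076 genes, and for 1692 (without control 24 h replicate 2) to 4966 (without control 12 h replicate 1) when 1 library was left out. The difference of the EV effects passed for 0 genes, and for 0 to 3668 when 1 library was left out. The cause of these moves was not tested.

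The 3 differences above a log2 of 1 kept their direction under every alternative run. Leaving out 1 library gave 12 h differences of 0.16 to 0.26 for Ankrd1, 1.12 to 1.30 for Ankrd2, 1.36 to 1.67 for Ankrd23 and 1.09 to 1.46 for Csrp3. At 24 h it gave -0.04 to 0.03 for Ankrd1, 2.07 to 2.36 for Ankrd2, 1.14 to 1.46 for Ankrd23 and 0.99 to 1.15 for Csrp3. The change of the EV difference ranged from -0.27 to -0.17 for Ankrd1, 0.86 to 1.15 for Ankrd2, -0.38 to -0.05 for Ankrd23 and -0.39 to -0.02 for Csrp3. The time effect ranged from -0.35 to -0.30 for Ankrd1, -0.37 to -0.23 for Ankrd2, -0.39 to -0.23 for Ankrd23 and 0.37 to 0.56 for Csrp3. Median-ratio scaling moved the 12 h difference of Ankrd1 to 0.35 and the time effect of Ankrd2 to -0.35 (adjusted p = 0.0423). Groups share replicate numbers, but the labels do not say what a number marks, and the replicate differences of the 2 treatments correlated across genes at -0.0125 at 12 h and 0.241 at 24 h. With the replicate block the Csrp3 time effect of 0.46 no longer passed (adjusted p = 0.0656). Of 1114 alternative values for the other named genes, 867 kept their side of the threshold, 239 no longer passed and 8 newly passed. No called difference changed sign. Differences near 0 did, with Ccn1 at 12 h between -0.10 and 0.10 and Ybx1 at 24 h between -0.02 and 0.00 when 1 library was left out.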
